A study of Mus musculus with 48 samples.

Results

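The genes described here encode the nuclear subunits of mitochondrial oxidative phosphorylation, measured in mononuclear phagocytes sorted from mouse ear skin with or without imiquimod. They were taken by symbol: every gene whose name begins with Nduf, Uqcr or Atp5, the Cox genes of cytochrome c oxidase from Cox4i to Cox8, Cycs, Cyc1 and Sdha to Sdhd, each read from a probe set with exactly 1 gene symbol. The rule found 91 genes on 118 probe sets, of which 90 passed the filter on low values among 15591 genes tested. The symbol rule itself uses no measured value, apart from taking the brightest probe set for the 18 genes that had several. It was chosen, however, with earlier results of these data known. The symbol rule also takes in 7 complex I assembly factors (Ndufaf1 to Ndufaf7), which are not subunits of the finished complex, and tissue isoforms. Ndufb4 and Cox7c were not analysed here.

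Imiquimod is an agonist of Toll-like receptor 7 that produces psoriasis-like inflammation on mouse skin. Mice of 8 to 11 weeks were treated daily with cream containing 5% imiquimod, 7 mg per side of the ear, in a 14-day course, and cells were sorted after 5 days, after 11 days or from untreated ears. Each group held 3 arrays. Langerhans cells, the dendritic cells of the epidermis (CD11b+MHCII+CD24+), were measured at day 5, at day 11 and untreated. The same conditions were measured in dermal CD11b+ conventional dendritic cells (CD11b+CD64-Ly-6C-MHCII+ CD24-), dermal macrophages with low MHC class II (MHCIIlow, CD11b+CD64hiCCR2lowLy-6ClowMHCIIlow) and dermal Ly-6Chigh monocyte-derived dendritic cells (moDC, CD11b+CD64lowCCR2+Ly-6ChighMHCII+). MHCIIhi dermal macrophages were measured at day 11 and untreated, and dermal monocytes (CD11b+CD64lowCCR2+Ly-6ChiMHCIIlow) at day 5 and untreated. The labels give no strain and do not say whether the arrays of a group came from separate mice, so the p-values measure the spread between these arrays.

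The electron transport chain sits in the inner mitochondrial membrane. Complex I takes electrons from NADH and complex II takes them from succinate, complex III passes them to cytochrome c, and complex IV hands them to oxygen. Complexes I, III and IV pump protons, and complex V, the ATP synthase, lets the protons flow back and makes ATP. In macrophages and dendritic cells the balance between this route and glycolysis is known to shift with activation: strong Toll-like receptor stimulation of cultured cells favours glycolysis, whereas resting and alternatively activated macrophages rely more on respiration. Most subunits are nuclear genes, and their promoters are known for sites of the factor NRF1 and of the ETS-family factor GABP.

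The unit throughout is the log2 RMA value, and differences are log2 differences between group means ± the standard error of a limma fit over all 48 arrays. "Rose", "fell", "higher" and "lower" mark genes at an adjusted p under 0.05 (Benjamini-Hochberg over 15591 genes). Array medians ran from 4.10 to 4.37, arrays of a group correlated at 0.926 to 0.988, and 43 of 48 arrays resembled their own group most. Replicates 1 and 2 of untreated monocytes were closest to untreated moDC, and replicate 3 of untreated MHCIIlow macrophages to untreated MHCIIhi macrophages. Replicate 1 of moDC and replicate 3 of CD11b+ dendritic cells at day 11 were closest to day 5 of their own population. Some marker lists were compared between untreated populations, and these followed the labels. All 4 Langerhans cell markers were higher in untreated Langerhans cells than in CD11b+ dendritic cells. In MHCIIlow macrophages, 4 of 5 macrophage markers were higher and 3 of 3 monocyte markers lower than in monocytes. Some marker lists moved under imiquimod, as described below. Sample titles carry a letter of unstated meaning that follows the design: B marks all 15 untreated dermal arrays, F the untreated Langerhans cells and all day 5 arrays, and G all day 11 arrays. In the dermal populations anything that followed this letter cannot be told apart from imiquimod; the Langerhans comparison at day 5 lies within a letter. Since RNA was amplified from sorted cells, less RNA per cell and fewer cells of a kind cannot be told apart.

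The upstream sequence of 74 of the 91 genes was matched by symbol in RefSeq (mouse build GRCm38.p6). Below are 250 bases upstream of the annotated start for Cox5a and Ndufa13, the genes that rose in all 5 populations at day 5, Ndufb2, whose response differed most between Langerhans and dermal cells, and Cycs, which encodes cytochrome c. They lie at chr9:57520982-57521231 (plus strand), chr8:69902021-69902270 (minus strand), chr6:39592315-39592564 (plus strand) and chr6:50566570-50566819 (minus strand), read 5′ to 3′ on the strand of the gene. Capitals mark matches, on either strand, to the NRF1 core GCGCATGC, the ETS site CCGGAAG, the YY1 core AAGATGGC, the CCAAT box, the Sp1 GC box GGGCGG and the palindromic cyclic AMP response element TGACGTCA.
Cox5a: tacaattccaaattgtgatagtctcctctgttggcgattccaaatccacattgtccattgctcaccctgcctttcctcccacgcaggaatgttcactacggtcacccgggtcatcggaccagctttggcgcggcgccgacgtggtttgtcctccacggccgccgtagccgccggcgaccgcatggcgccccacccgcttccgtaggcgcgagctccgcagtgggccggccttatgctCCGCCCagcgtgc
Ndufa13: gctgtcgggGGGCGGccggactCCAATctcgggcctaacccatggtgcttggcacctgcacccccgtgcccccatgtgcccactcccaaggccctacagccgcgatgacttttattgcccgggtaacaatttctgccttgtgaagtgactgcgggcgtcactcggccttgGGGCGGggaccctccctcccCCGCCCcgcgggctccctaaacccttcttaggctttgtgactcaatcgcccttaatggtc
Ndufb2: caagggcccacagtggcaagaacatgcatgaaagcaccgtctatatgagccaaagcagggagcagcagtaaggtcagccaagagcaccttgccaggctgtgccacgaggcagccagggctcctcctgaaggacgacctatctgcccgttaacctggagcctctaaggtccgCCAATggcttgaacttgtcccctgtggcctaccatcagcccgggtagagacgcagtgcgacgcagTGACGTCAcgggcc
Cycs: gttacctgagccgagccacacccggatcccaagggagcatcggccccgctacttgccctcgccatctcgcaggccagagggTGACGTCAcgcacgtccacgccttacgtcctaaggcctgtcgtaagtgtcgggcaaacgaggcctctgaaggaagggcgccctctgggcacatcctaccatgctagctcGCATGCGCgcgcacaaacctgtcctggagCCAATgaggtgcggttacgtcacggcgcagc
The NRF1 core stood in this window in 10 of the 74 genes (13.5%), against 2.56% of the 27025 genes of the same table and 3.32% of its protein-coding genes. For the ETS site the shares were 17.6% of members, 7.83% of all genes and 10.2% of protein-coding genes, and for the cyclic AMP response element 6.76%, 1.77% and 2.20%. CCAAT occurred in 44.6% of members, 37.5% of all genes and 39.5% of protein-coding genes. The GC box occurred in 39.2%, 35.4% and 45.8%, so that members lie above all genes and below protein-coding genes, and the YY1 core in 1.35%, 1.83% and 1.77%. Cycs carries the NRF1 core, a CCAAT box and the cyclic AMP response element, Ndufb2 the last of these with a CCAAT box, Ndufa13 GC boxes with a CCAAT box, and Cox5a a GC box. These are letter matches in a fixed window and were not tested as binding sites.

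Across the 16 groups the mean of the 90 members was highest in MHCIIlow macrophages at day 5 (9.58 ± 0.03, SD, n = 3) and lowest in untreated MHCIIhi macrophages (8.71 ± 0.29) and untreated monocytes (8.72 ± 0.09). All 6 untreated groups took the 6 lowest places. Among them Langerhans cells (9.17 ± 0.08) and CD11b+ dendritic cells (9.06 ± 0.04) stood above MHCIIlow macrophages (8.84 ± 0.11), moDC (8.80 ± 0.14), monocytes and MHCIIhi macrophages, and those last 4 overlapped array by array. Treated groups lay between 9.24 ± 0.09 (moDC at day 11) and 9.58, with most neighbours in this order inside each other's spread. By title letter the array means ran from 9.23 to 9.61 in the 15 day 5 arrays, from 9.14 to 9.57 in the 15 day 11 arrays, from 9.10 to 9.26 in untreated Langerhans cells and from 8.38 to 9.12 in the 15 untreated dermal arrays. The lowest, 8.38, was replicate 3 of untreated MHCIIhi macrophages.

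**Figure D1:**
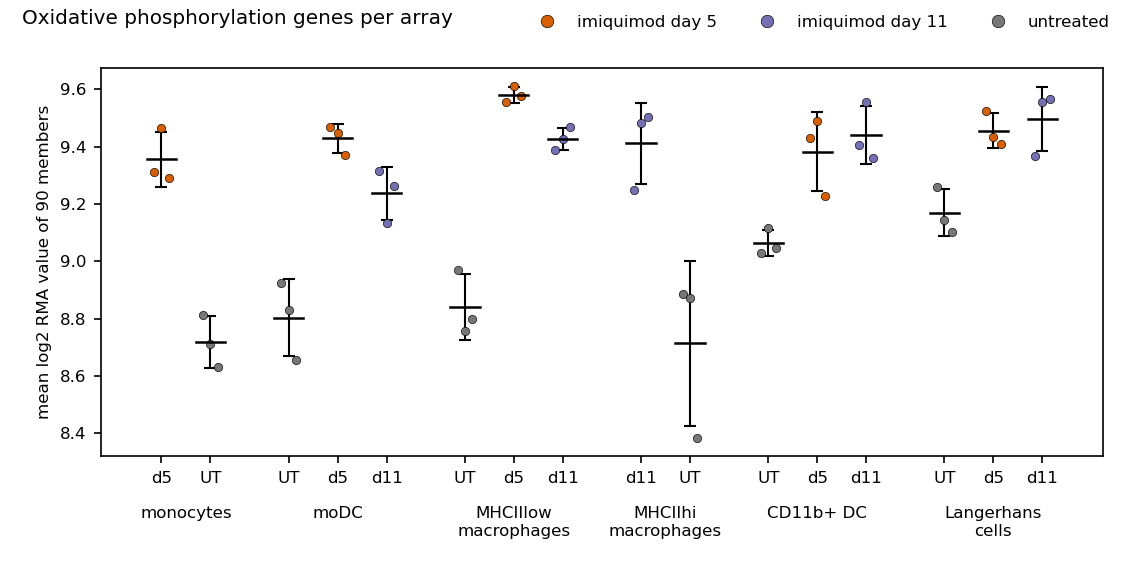
Mean log2 RMA value of the 90 tested members on each array (points), with the group mean (line) and SD (bar) of 3 arrays, by population and treatment. In every population the imiquimod arrays lie above the untreated arrays, and the lowest array is an untreated MHCIIhi macrophage array at 8.38.

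At day 5 of imiquimod, oxidative phosphorylation genes rose broadly in MHCIIlow macrophages, moDC and monocytes. Fewer rose in CD11b+ dendritic cells and Langerhans cells. Higher were 67 of 90 members in MHCIIlow macrophages (74.4%, against 7.22% of all genes), 55 in moDC (61.1%, against 5.68%) and 59 in monocytes (65.6%, against 6.43%). CD11b+ dendritic cells had 18 (20%, against 3.01%). Langerhans cells had 12 (13.3%, against 8.64%), the nearest to the share of all genes. In any of the 5, 0 members were lower, against 4.96% to 7.49% of all genes (limma, with at most 1 lower at an unadjusted p under 0.05). Cox5a, which encodes a matrix-side structural subunit of complex IV, and Ndufa13, an accessory subunit of complex I, rose in all 5, as did 0.257% of all genes. A further 22 rose in 4 of the 5, 24 in 3, 11 in 2 and 19 in 1, while 12 rose in none. The change was positive in all 5 populations for 70 members. The share of all genes was not computed for this count, nor for the tallies of fewer than 5 populations at either day. At day 11, over MHCIIhi and MHCIIlow macrophages, moDC, CD11b+ dendritic cells and Langerhans cells, Ndufv2, an iron-sulfur subunit of the NADH-oxidising module of complex I, rose in all 5 (0.192% of all genes), 18 members rose in 4, 16 in 3, 17 in 2, 14 in 1 and 24 in none.

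**Figure D2:**
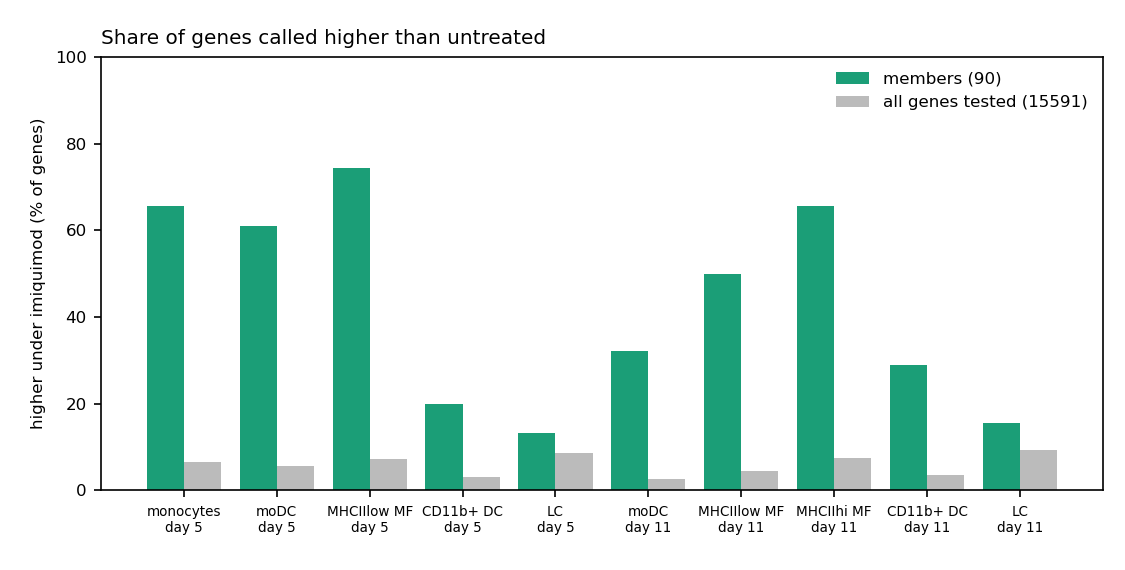
Percentage of the 90 members (green) and of all 15591 genes tested (grey) called higher under imiquimod than in untreated cells at an adjusted p under 0.05, for the 5 populations at day 5 and the 5 at day 11. The members' bar exceeds the grey bar in each comparison and is shortest in Langerhans cells.

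MHCIIlow macrophages at day 5 showed the widest rise, with 67 of 90 members higher and 0 lower, against 7.22% higher and 6.95% lower among all genes tested. The median change of the members was 0.68, against -0.02 for all genes. All 6 measured core subunits of complex I rose, with 24 of 28 accessory subunits, 5 of 7 assembly factors, 8 of 10 genes of complex III and cytochrome c, 9 of 11 of complex IV, 13 of 17 of complex V and 1 of 4 of complex II. Ndufb2, an accessory subunit of the membrane arm of complex I, measured 9.01, 9.16 and 9.05 at day 5, against 7.81, 7.20 and 7.20 in untreated cells. The groups lay well apart, a change of 1.67 ± 0.24 (3.18-fold, adjusted p = 6.70e-06). Cycs, the mobile carrier between complexes III and IV, measured 9.56, 9.43 and 10.01 at day 5, against 8.41, 7.79 and 8.10 in untreated cells (1.57 ± 0.26, adjusted p = 5.09e-05). A dimmer Cycs probe set with a 48-array mean of 3.91 gave -0.34 ± 0.31 (adjusted p = 0.545), and the third, at 8.31, gave 1.61 ± 0.24. Ndufs4, an accessory subunit of complex I whose loss causes a Leigh-like disease in mice, rose by 1.42 ± 0.24, Ndufb6 by 1.46 ± 0.25 and the assembly factor Ndufaf1 by 1.57 ± 0.32. In this comparison the catalytic core of ATP synthase also passed the test: Atp5a1 (alpha) changed by 0.55 ± 0.16, Atp5b (beta) by 0.54 ± 0.15 and Atp5c1 (gamma) by 0.45 ± 0.14. Genes of the G2 and M phases rose with them, 23 of 24, with a list mean of 6.51 to 6.71 at day 5, against 4.78 to 5.19 in untreated arrays, and their part in the result was not tested. Of the 67 members that rose, 66 had no overlap between the groups (98.5%, against 96.4% of all genes called higher).

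Monocytes at day 5 had 59 members higher and 0 lower, against 6.43% and 6.31% of all genes, with a median change of 0.58. The accessory subunits of complex I had the largest share of the roles, with 27 of 28 higher. Its core subunits rose in 4 of 6 and its assembly factors in 2 of 7. Elsewhere 8 of 10 genes of complex III and cytochrome c, 8 of 11 of complex IV, 7 of 17 of complex V and 2 of 4 of complex II rose. Ndufb8, a membrane-arm subunit often used as a protein marker of assembled complex I, measured 10.21, 10.69 and 10.80 at day 5, against 9.62, 9.14 and 8.65 in untreated monocytes. The lowest treated array lay above the highest untreated one, a change of 1.43 ± 0.21 (2.70-fold, adjusted p = 1.72e-05). Ndufs6, a zinc-binding accessory subunit of the matrix arm, measured 9.71, 9.99 and 9.65 at day 5, against 8.49, 8.44 and 8.25 in untreated monocytes (1.39 ± 0.23, adjusted p = 0.000102). Ndufa6 rose by 1.22 ± 0.24, Ndufaf3 by 1.22 ± 0.31, Ndufb5 by 1.18 ± 0.21 and Ndufv2 by 1.11 ± 0.17. G2 and M phase genes had 1 higher and 2 lower of 24 here, at a list mean of 4.30 to 4.48 at day 5 and 4.14 to 4.51 in untreated monocytes. Groups did not overlap for 54 of the 59 (91.5%, against 89.2% of all genes called higher). Fitted on these 6 arrays alone, 4 members rose, and without replicate 2 of day 5 monocytes 37 did.

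In moDC at day 5, 55 members rose and 0 fell, against 5.68% and 5.61% of all genes, and the median change was 0.63. By role, 22 of 28 accessory and 4 of 6 core subunits of complex I rose, 2 of 7 assembly factors, 2 of 4 genes of complex II, 8 of 10 of complex III and cytochrome c, 9 of 11 of complex IV and 8 of 17 of complex V. Ndufs4 measured 9.66, 9.58 and 9.49 at day 5, against 8.55, 8.49 and 7.37 in untreated moDC, where replicate 3 was the lowest (1.44 ± 0.24, adjusted p = 0.000102). Ndufs3, a core subunit of the matrix arm, rose by 1.21 ± 0.27, Ndufv1, the NADH-binding flavoprotein, by 1.15 ± 0.21, Ndufb5 by 1.19 ± 0.21 and the assembly factor Ndufaf2, a relative of Ndufa12, by 1.26 ± 0.30. Fibroblast markers moved the other way, 3 of 10 lower, with a list mean of 5.52 to 6.89 at day 5, against 7.83 to 8.04 in untreated moDC, and their part in the result was not tested. Between groups, 54 of the 55 did not overlap (98.2%, against 94.1% of all genes called higher). The count was 25 in a fit of these 6 arrays alone and 32 without replicate 3 of untreated moDC.

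At day 11 the rise was seen again in macrophages and, with fewer calls, in moDC. MHCIIhi macrophages, which were measured at this day and untreated, had 59 of 90 members higher and 0 lower, against 7.45% and 7.49% of all genes. Their median change, 0.75, was the largest of the 10 imiquimod comparisons in the main fit. Over all settings run it ranged from 0.58 to 0.82, overlapping the 0.66 to 0.75 of MHCIIlow macrophages at day 5. Ndufs7, the iron-sulfur subunit next to the quinone site of complex I, measured 8.71, 8.97 and 9.16 at day 11, against 8.11, 7.41 and 6.53 in untreated cells. The untreated arrays spread widely, and the groups did not overlap (1.60 ± 0.23, 3.03-fold, adjusted p = 8.93e-06). Ndufb2 rose by 1.45 ± 0.24, Ndufb6 by 1.41 ± 0.25, Ndufaf1 by 1.36 ± 0.32, Ndufs3 by 1.28 ± 0.27 and Ndufb8 by 1.23 ± 0.21. Of the roles, 24 of 28 accessory subunits, 5 of 6 core subunits, 4 of 7 assembly factors, 1 of 4 genes of complex II, 8 of 10 of complex III and cytochrome c, 9 of 11 of complex IV and 8 of 17 of complex V rose. Uqcrfs1, the Rieske iron-sulfur protein of complex III, passed the test here (0.72 ± 0.22, adjusted p = 0.0195) and in no other imiquimod comparison. Keratinocyte markers were also higher, 7 of 19, with a list mean of 6.80 to 7.66 at day 11, against 6.02 to 6.86 in untreated cells, and their part was not tested. All 59 were without overlap, against 91.3% of all genes called higher. Leaving out replicate 3 of untreated cells left 44, and fitting the 6 arrays alone left 28.

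MHCIIlow macrophages at day 11 had 45 members higher and 0 lower, against 4.33% and 5.39% of all genes, at a median of 0.58. Ndufb2 measured 8.98, 8.84 and 8.78 at day 11, against the untreated values given above (1.46 ± 0.24, adjusted p = 6.15e-05). Ndufa2, an accessory subunit with a thioredoxin-like fold, measured 10.81, 10.67 and 10.91 at day 11, against 9.87, 9.51 and 9.71 in untreated cells (1.10 ± 0.14, adjusted p = 6.49e-07). These ranges lay clearly apart. Ndufa8 rose by 1.24 ± 0.18, Ndufb6 by 1.22 ± 0.25, Ndufb8 by 1.21 ± 0.21 and Ndufb3 by 1.13 ± 0.27. The counts by role were 22 of 28 accessory subunits, 4 of 6 core subunits, 0 of 7 assembly factors, 1 of 4 genes of complex II, 4 of 10 of complex III and cytochrome c, 7 of 11 of complex IV and 7 of 17 of complex V. No overlap between groups was seen for 44 of the 45 (97.8%, against 95.7% of all genes called higher).

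In moDC at day 11, 29 members rose and 0 fell, against 2.58% and 5.84% of all genes (median 0.44). Of these 29, 14 were among the 28 accessory subunits of complex I and 3 among the 6 core subunits, with 2 assembly factors, 4 genes of complex III and cytochrome c, 2 of complex IV, 4 of complex V and 0 of complex II. Ndufa12 measured 9.29, 9.49 and 9.09 at day 11, against 7.97, 8.46 and 8.41 in untreated moDC (1.01 ± 0.16, adjusted p = 0.000105). Ndufb6 rose by 1.00 ± 0.25, Ndufb8 by 0.96 ± 0.21, Ndufb2 by 0.95 ± 0.24, Ndufaf3 by 0.98 ± 0.31 and Ndufaf6 by 1.12 ± 0.35. Fibroblast markers were lower in 6 of 10 here, with a list mean of 6.05 to 6.78 at day 11, against 7.83 to 8.04 untreated, and their part was not tested. The groups were apart for 28 of the 29 (96.6%, against 91.6% of all genes called higher). The count was 13 without replicate 3 of untreated moDC, 17 and 19 without replicates 1 and 3 of day 11, and 0 in a fit of these 6 arrays alone.

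CD11b+ dendritic cells changed in fewer members. At day 5, 18 rose and 0 fell, against 3.01% and 4.96% of all genes (median 0.34), and at day 11, 26 rose and 0 fell, against 3.55% and 6.79% (median 0.36). The day 5 genes were 7 accessory subunits of complex I, Ndufv1 of its core, 2 assembly factors, 2 genes of complex III, 3 of complex IV and 3 of complex V. Ndufaf3, an assembly factor of the early complex I intermediates, measured 8.67, 8.91 and 8.39 at day 5 and 8.61, 8.85 and 8.09 at day 11, against 7.90, 6.48 and 7.11 in untreated cells. The untreated values were scattered but all lower, with a 2.82-fold change at day 5 (adjusted p = 0.00166) and a log2 change of 1.35 ± 0.31 at day 11 (adjusted p = 0.00371). Ndufb2 measured 8.64, 8.53 and 8.52 at day 5 and 8.61, 8.97 and 8.37 at day 11, against 7.34, 7.91 and 7.73 in untreated cells (0.91 ± 0.24 and 0.99 ± 0.24). Ndufa8 rose by 0.66 ± 0.18 at day 5 and 1.10 ± 0.18 at day 11. Atp5d, the delta subunit of the ATP synthase stalk, rose by 0.70 ± 0.16 at day 5, and the complex III subunit Uqcr11 by 0.69 ± 0.20. The catalytic subunits of complex V did not pass the test: Atp5b stood at 0.00 ± 0.15 at day 5 and -0.29 ± 0.15 at day 11, and Atp5a1 at 0.10 ± 0.16 and -0.28 ± 0.16. All 18 day 5 calls and 25 of the 26 day 11 calls had no overlap, against 96.2% and 89% of all genes called higher.

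Langerhans cell markers were higher in these sorted CD11b+ dendritic cells under imiquimod, 3 of 4 at both days, with a list mean of 8.21 to 8.32 at day 5 and 6.71 to 8.99 at day 11, against 5.64 to 6.01 untreated and 10.57 to 10.65 in untreated Langerhans cells. Monocyte markers were higher in 2 of 3 at both days. Their part in the members' rise was not tested. The day 5 count was 7 without replicate 1 or without replicate 2 of day 5, 10 without untreated replicate 1 or 3, 11 without untreated replicate 2, and 3 in a fit of the 6 arrays alone. The day 11 count was 8 without replicate 2 of day 11, an array that stood apart from its group, 17 without its replicate 1, 12 without untreated replicate 3, and 1 in a fit of the 6 arrays alone.

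Langerhans cells rose in 12 members at day 5 and in 14 at day 11, with 0 lower at either day, against 8.64% higher and 7.49% lower of all genes at day 5 and 9.31% and 8.4% at day 11. As a share, 13.3% of members were higher at day 5 and 15.6% at day 11. Median changes were 0.25 and 0.35. The day 5 genes were Ndufs8, Ndufa9, Ndufb7, Ndufc2 and Ndufa13 of complex I, the assembly factor Ndufaf7, Cyc1, Cycs and Uqcr10, Cox5a and Cox4i2, and Atp5k. Ndufs8, an iron-sulfur subunit of the complex I core, measured 9.13, 8.78 and 8.78 at day 5 and 8.51, 8.82 and 8.73 at day 11, against 8.05, 8.25 and 7.72 in untreated Langerhans cells. All treated arrays lay above all untreated ones (0.89 ± 0.20, adjusted p = 0.00119, and 0.68 ± 0.20, adjusted p = 0.0140). Ndufaf7, a methyltransferase that acts in complex I assembly, measured 6.76, 6.65 and 6.53 at day 5 and 6.62, 6.80 and 7.10 at day 11, against 5.81, 5.74 and 5.72 untreated (0.89 ± 0.20 and 1.08 ± 0.20, adjusted p = 0.00148 and 0.000127). Cox5a measured 10.46, 10.26 and 10.28 at day 5 and 10.24, 10.51 and 10.31 at day 11, against 9.88, 9.89 and 9.64 untreated (0.53 ± 0.12 and 0.55 ± 0.12). Ndufb7, Ndufc2, Cyc1, Atp5k and Ndufa13 also rose at both days. Sdhd, a membrane anchor of complex II, rose at day 11 by 1.03 ± 0.28, Atp5pb, of the peripheral stalk of ATP synthase, by 0.79 ± 0.23, and Ndufaf1 by 1.15 ± 0.32. None of the 12 or 14 overlapped, against 97.7% at day 5 and 95.8% at day 11 without overlap among all genes called higher.

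Other lists moved in Langerhans cells over the same comparison. G2 and M phase genes rose, 23 of 24 at day 5 and 19 of 24 at day 11, with a list mean of 6.49 to 7.06 at day 5 and 6.26 to 6.48 at day 11, against 4.90 to 5.19 untreated. Keratinocyte markers fell in 12 of 19 and rose in 2 at day 5, with a list mean of 7.07 to 7.92, against 8.46 to 8.94 untreated. Monocyte markers rose in 3 of 3 at day 5, at a list mean of 6.18 to 7.08, against 3.44 to 3.68 untreated. The part of these lists was not tested. The day 5 count was 6 without replicate 1 of day 5, 21 with the title number as replicate block and 19 without the 3 arrays of other populations that stood apart. The day 11 count was 6 and 8 without replicates 2 and 3 of day 11 9 without untreated replicate 2 or 3, and 23 without those 3 arrays.

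The difference between the Langerhans response and the mean response of the 4 dermal populations measured on the same day was tested gene by gene. These populations included monocytes at day 5 only and MHCIIhi macrophages at day 11 only. At day 5 it was lower for 20 members and higher for 1, against 6.21% lower and 7.32% higher of all genes, with a median of -0.34. The 20 comprised 9 accessory subunits and 1 core subunit of complex I, 3 genes of complex III, 5 of complex IV and 2 of complex V. Ndufb2 differed most: it measured 8.66, 8.63 and 8.58 in Langerhans cells at day 5, against 8.77, 8.54 and 8.43 untreated, with full overlap, while it rose in all 4 dermal populations (difference -1.12 ± 0.27, adjusted p = 0.00310). Ndufv1 (-0.95 ± 0.23), Ndufa6 (-0.92 ± 0.27), Ndufb8 (-0.90 ± 0.23), Ndufa1 (-0.81 ± 0.21) and Ndufb5 (-0.70 ± 0.24) followed. Cox4i2 was the exception at 0.68 ± 0.20 (adjusted p = 0.0185). At day 11 the difference was lower for 10 members and higher for 1, against 5.57% and 6.82% of all genes, led again by Ndufb2 (-1.24 ± 0.27, adjusted p = 0.00110), with Ndufaf7 higher at 0.69 ± 0.23. Untreated Langerhans arrays carry another title letter than the untreated dermal arrays, so a letter effect cannot be told apart from this difference. Without untreated Langerhans replicate 1 the counts of calls in either direction, 21 at day 5 and 11 at day 11, were 7 and 4; they were 9 and 11 without replicates 2 and 3 of day 5. At day 11, 4, 6 and 7 were called without replicates 1, 2 and 3, 7 without untreated replicate 3, 6 in a fit of the groups compared and 3 after median-centring the arrays.

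**Figure D3:**
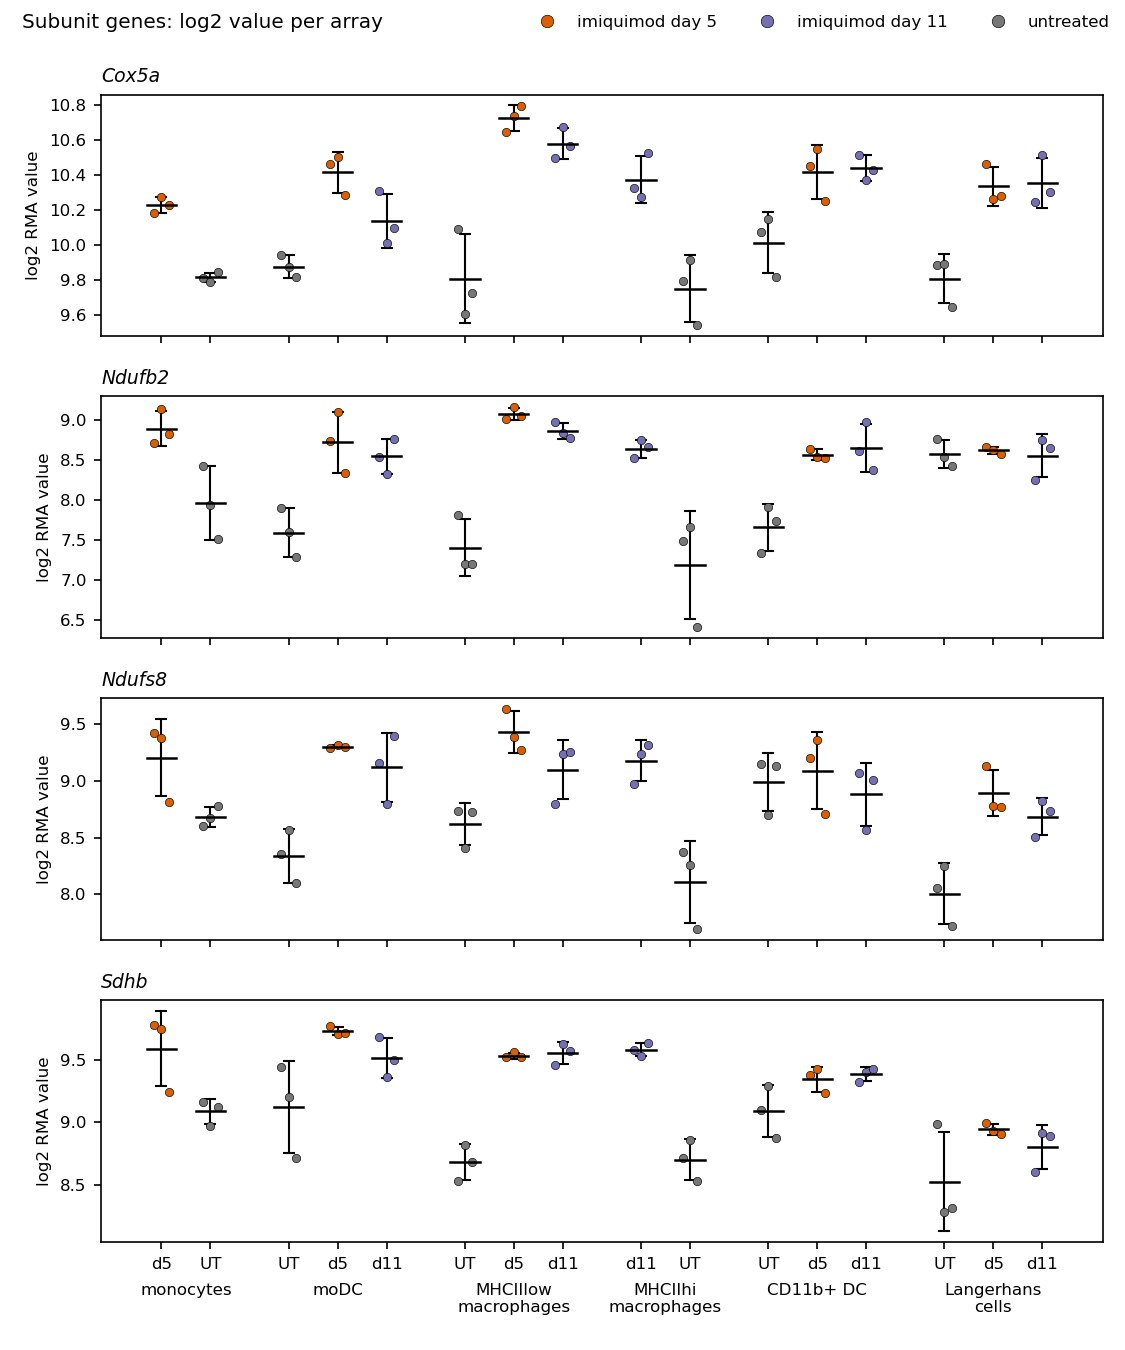
Log2 RMA value on each array (points) with mean and SD of 3 arrays for Cox5a, Ndufb2, Ndufs8 and Sdhb, by population and treatment; vertical axes differ between genes. Cox5a rose in every comparison with untreated cells except moDC at day 11, whereas the Ndufb2 arrays of untreated Langerhans cells (8.43 to 8.77) overlap those of treated Langerhans cells and lie below those of treated MHCIIlow macrophages.

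Between day 11 and day 5 no member passed the test in any of the 4 populations measured at both days. In moDC 0 members were higher and 0 lower at day 11 (limma, with 1 and 15 at an unadjusted p under 0.05), against 0.148% and 0.866% of all genes, at a median of -0.19. For MHCIIlow macrophages the counts were also 0 and 0 (1 and 7 unadjusted), against 0.0834% and 0.398%, with a median of -0.14. CD11b+ dendritic cells gave 0 and 0 (2 and 3 unadjusted), against 0.257% and 0.706%, with a median of 0.06, and Langerhans cells 0 and 0 (1 and 1 unadjusted), against 0.577% and 1.54%, with a median of 0.04. The day 5 and day 11 comparisons with untreated cells share their untreated arrays and are given side by side, not as separate evidence.

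Accessory subunits of complex I had larger median changes than complex V genes in each of the 3 comparisons with the most calls. The median change of the 28 accessory complex I subunits was 0.89 in MHCIIlow macrophages and 0.84 in monocytes at day 5 and 0.89 in MHCIIhi macrophages at day 11, whereas that of the 17 complex V genes was 0.54, 0.39 and 0.46. In the same order, core subunits of complex I stood at 0.805, 0.89 and 1.04 and assembly factors at 0.99, 0.57 and 0.91. Complex III and cytochrome c stood at 0.70, 0.71 and 0.78, complex IV at 0.64, 0.45 and 0.62 and complex II at 0.45, 0.41 and 0.53. These are medians of differences, with no test between complexes. Within complex V, the calls were uneven: Atp5d and Atp5e, the delta and epsilon subunits of the central stalk, rose in 7 and 8 of the 10 comparisons with untreated cells, while Atp5a1, Atp5b and Atp5c1 rose in 1 each. Atp5o, a subunit of the peripheral stalk, and Atp5j, which belongs to the same stalk, rose in none, with changes from -0.18 to 0.47 and from -0.09 to 0.42. In complex II, Sdhb, the iron-sulfur subunit, rose in 5 of the 10, by 0.85 ± 0.16 in MHCIIlow macrophages at day 5 and 0.88 ± 0.16 in MHCIIhi macrophages at day 11. Sdha, the flavoprotein that oxidises succinate, rose in none (0.04 to 0.41), and Sdhc, the other membrane anchor, rose in moDC at day 5 alone (0.66 ± 0.21). In complex IV, Cox5b, a zinc-binding structural subunit, rose by 0.99 ± 0.12 and Cox4i1, the common form of its largest nuclear subunit, by 0.84 ± 0.16 in monocytes at day 5. Cox6a1, with the narrowest range of group means among the tested members (0.42), rose by 0.35 ± 0.08 in MHCIIlow macrophages at day 5.

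**Figure D4:**
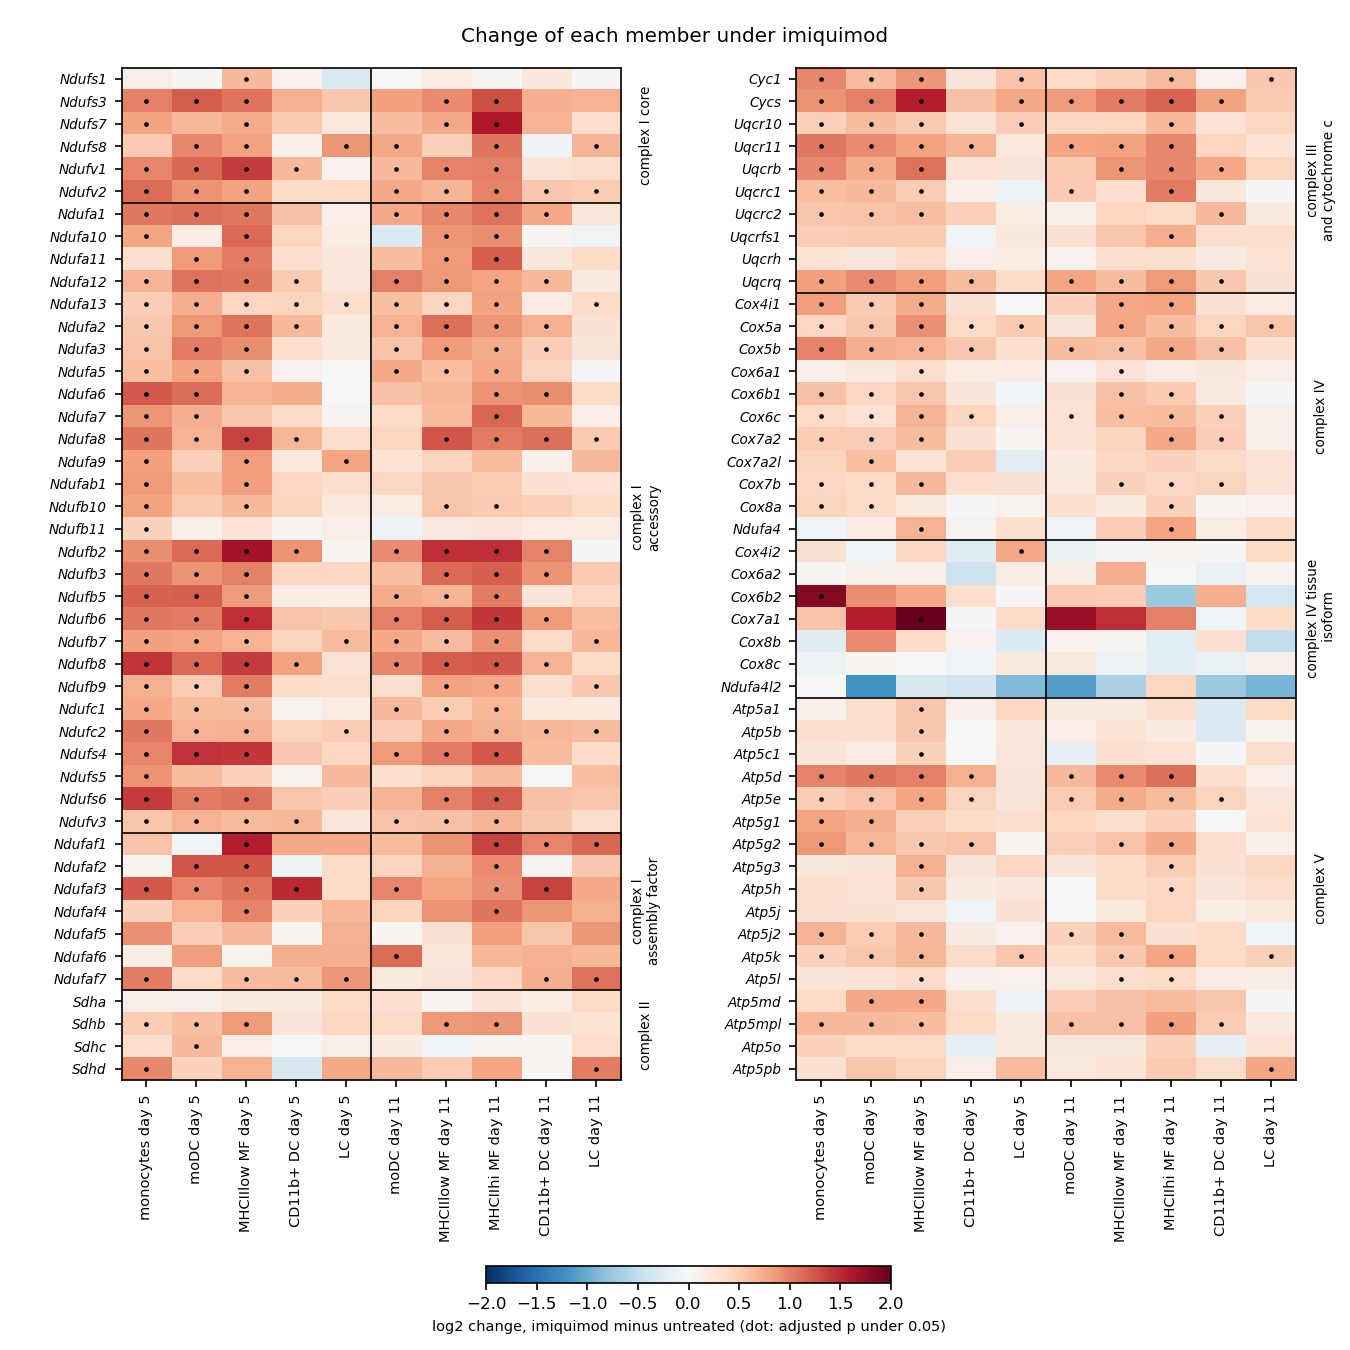
Log2 change of each of the 90 tested members (rows, grouped by complex) under imiquimod against untreated cells in 5 populations at day 5 and 5 at day 11 (columns); dots mark an adjusted p under 0.05. Red, higher under imiquimod, fills most of complexes I and III, all dots lie on rises, and the tissue isoforms of complex IV hold 3 dots.

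Over the 10 imiquimod comparisons 81 members rose at least once, against 25.4% of all genes, 0 fell in any, against 25.7%, and 9 passed the test in none (Atp5j, Atp5o, Cox6a2, Cox8b, Cox8c, Ndufa4l2, Ndufaf5, Sdha and Uqcrh). In 5 members the arrays separated fully by letter, with all 15 untreated dermal arrays (title letter B) below all 33 others, namely Cox5b, Cox6c, Ndufa1, Ndufa2 and Ndufa13. That separation held for 17 of all 15591 genes, and for 39 of 12146 probe sets that name no gene, while the opposite order was found for 21 genes, 0 of them members. Untreated Langerhans cells fall with the treated arrays in this split. For Cox5b, for example, they measured 10.92, 10.85 and 10.83, against at most 10.72 in the untreated dermal arrays.

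Comparisons between untreated populations called 1 to 17 members, with shares called higher mostly close to those of all genes. Langerhans cells had 14 members higher and 3 lower than CD11b+ dendritic cells (15.6% and 3.33%), against 11.2% and 11.9% of all genes. Higher were Ndufaf3 (0.97 ± 0.31), Ndufb2 (0.92 ± 0.24), Cox7a2l, a factor that joins complexes III and IV (0.79 ± 0.17), Ndufa6 (0.71 ± 0.24), Ndufa8 (0.61 ± 0.18) and Atp5d (0.60 ± 0.16). Lower were Ndufs8 (-0.99 ± 0.20), the testis isoform Cox8c (-0.41 ± 0.13), which lies near the filter threshold, and Sdhb (-0.56 ± 0.16). Ndufs8 measured 8.05, 8.25 and 7.72 in Langerhans cells, against 9.15, 8.70 and 9.13 in CD11b+ dendritic cells, with no overlap. Sdhb overlapped, at 8.98, 8.28 and 8.32, against 9.09, 9.29 and 8.88. Keratinocyte markers were higher in these Langerhans cells for 16 of 19, with a list mean of 8.46 to 8.94, against 5.72 to 6.10 in CD11b+ dendritic cells, and the title letter also differs; their part was not tested. The count of 17 was 11 after median-centring, 11 without CD11b+ dendritic cell replicate 2 or 3 and 8 without Langerhans replicate 1.

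CD11b+ dendritic cells had 3 members higher (3.33%) and 0 lower than moDC, against 1.92% and 1.65% of all genes: Ndufaf2 (1.48 ± 0.30), Ndufb5 (0.88 ± 0.21) and Ndufa12 (0.56 ± 0.16). MHCIIlow macrophages had 9 higher and 2 lower than monocytes (10% and 2.22%), against 10.9% and 7.78%. Among them were Cox6a2 (1.21 ± 0.26), Ndufab1, the mitochondrial acyl carrier protein (0.94 ± 0.26), Ndufc2 (0.83 ± 0.17), Ndufa12 (0.69 ± 0.16), Ndufv2 (0.63 ± 0.17) and Ndufa5 (0.63 ± 0.20), with Atp5d lower (-0.55 ± 0.16). In moDC, 2 members were higher (2.22%) and 0 lower than in monocytes, against 2.16% and 1.27%: Cox6b2 (2.02 ± 0.54) and Ndufc2 (0.79 ± 0.17). MHCIIhi macrophages had 0 higher and 1 lower (1.11%) than MHCIIlow macrophages, against 0.552% and 0.346%, namely Uqcrc1, a core subunit of complex III (-0.69 ± 0.15). Fits of the groups compared alone left 0 in the moDC, MHCIIhi and CD11b+ dendritic cell comparisons and 1 in the MHCIIlow comparison, and the MHCIIhi call was lost without replicate 2 or 3 of MHCIIhi or replicate 1 of MHCIIlow macrophages and joined by another (2 in all) without replicate 1 of MHCIIhi. The 11 calls between MHCIIlow macrophages and monocytes were 7 without monocyte replicate 3. The 2 calls between moDC and monocytes were 0 without monocyte replicate 3 and 1 without its replicate 2 or moDC replicate 1 or 3, and the 3 calls between CD11b+ dendritic cells and moDC were 1 without moDC replicate 3 and 5 without moDC replicate 2 or CD11b+ dendritic cell replicate 1.

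Among the 7 tissue isoforms of complex IV, group means spanned 4.32 for Cox6b2, 3.78 for Cox7a1, 2.54 for Cox6a2 and 2.07 for Ndufa4l2, against 1.08 for Cox8b, 0.96 for Cox4i2 and 0.48 for Cox8c. In the 10 imiquimod comparisons 3 calls were made among them. Cox6b2, known as the testis form of a subunit on the intermembrane side, measured 9.16, 9.37 and 9.18 in CD11b+ dendritic cells at day 5 and 9.45, 9.86 and 9.61 at day 11, against 8.31, 9.73 and 8.70 untreated, and its lowest group mean was in untreated MHCIIlow macrophages (5.32). It rose in monocytes at day 5 (1.84 ± 0.54, adjusted p = 0.0212), where the arrays overlapped: 6.42, 8.38 and 7.76 at day 5, against 6.86, 4.73 and 5.45 untreated. Cox7a1, the heart and skeletal muscle form of a complex IV subunit, rose in MHCIIlow macrophages at day 5, with 8.09, 8.69 and 9.18, against 6.28, 7.49 and 5.26 untreated (2.31 ± 0.61, 4.94-fold, adjusted p = 0.00775). Its changes in moDC, 1.57 ± 0.61 at day 5 and 1.72 ± 0.61 at day 11, did not pass the test. Cox6a2, also a muscle form, stood at 6.49 to 7.93 in every macrophage array and at 4.91 to 6.35 in every other array. No imiquimod comparison moved it past the test.

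Cox4i2, an isoform known for its induction at low oxygen, rose in Langerhans cells at day 5, with 5.05, 5.41 and 5.32, against 4.14, 4.60 and 4.72 untreated (0.78 ± 0.18, adjusted p = 0.00157). At day 11 the change was 0.36 ± 0.18 and did not pass. Ndufa4l2, a complex IV relative induced by hypoxia-inducible factor, had changes from -1.21 to 0.42, the lowest in moDC at day 5 (± 0.49, adjusted p = 0.104), and passed the test in none. Cox8b and Cox8c, the muscle and testis forms of a small subunit, had group means near the filter threshold of 3.77, apart from replicate 3 of moDC at day 5, at 6.49 for Cox8b. Cox7b2, a testis form, was the 1 member that did not pass the filter.

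**Figure D5:**
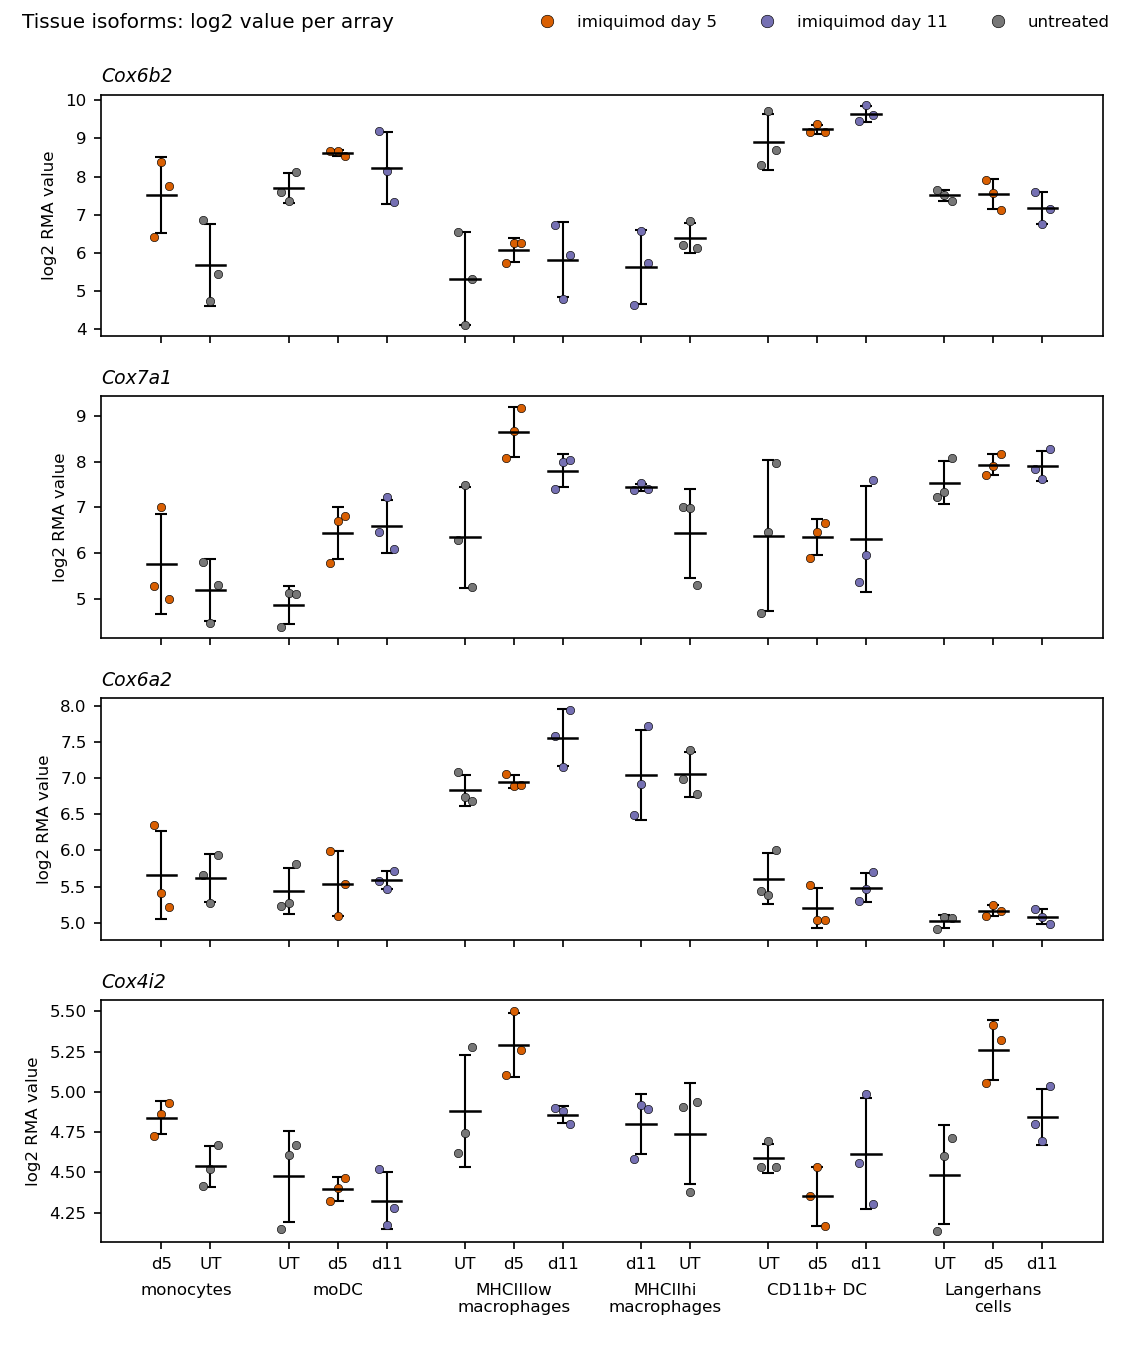
Log2 RMA value on each array (points) with mean and SD of 3 arrays for the complex IV tissue isoforms Cox6b2, Cox7a1, Cox6a2 and Cox4i2; vertical axes differ between genes. Cox6b2 is highest in CD11b+ dendritic cells and Cox6a2 in both macrophage populations at each time, while Cox4i2 stands apart from untreated cells in Langerhans cells at day 5.

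Genes that serve the same machinery were read from lists outside the symbol rule. Of all genes, 7.22% were higher at day 5 in MHCIIlow macrophages, 5.68% in moDC and 6.43% in monocytes. The shares were 3.01% in CD11b+ dendritic cells and 8.64% in Langerhans cells. Day 11 shares were 7.45% in MHCIIhi macrophages, 4.33% in MHCIIlow macrophages, 2.58% in moDC, 3.55% in CD11b+ dendritic cells and 9.31% in Langerhans cells. The share lower ran from 4.96% to 8.4%, and the lists were not tested against these shares. Proteins of the mitochondrial ribosome, which translates the subunits encoded in mitochondrial DNA, rose in 44 of 77 genes in MHCIIlow macrophages at day 5 (median 0.82), 30 in moDC, 26 in monocytes with 1 lower, 4 in CD11b+ dendritic cells and 19 in Langerhans cells (median 0.59). At day 11 the counts were 40 in MHCIIhi macrophages, 29 in MHCIIlow macrophages, 14 in moDC with 1 lower, 17 in CD11b+ dendritic cells and 31 in Langerhans cells. Mrpl34, of the large subunit, rose by 1.67 ± 0.30 in monocytes, 1.53 ± 0.30 in moDC and 1.52 ± 0.30 in MHCIIlow macrophages at day 5, and Mrpl18 by 1.44 ± 0.23 in Langerhans cells. Cytosolic ribosomal proteins were called in 1 to 10 of 59 upward and 0 to 2 downward over the 10 comparisons, with medians from -0.10 to 0.14.

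The counts that follow stand beside the same shares of all genes. Assembly factors outside the rule rose in 16 of 36 in MHCIIlow macrophages, 9 in monocytes, 8 in moDC, 2 in CD11b+ dendritic cells and 5 in Langerhans cells at day 5. Cox14, which stabilises newly made complex IV, rose by 1.37 ± 0.17 in moDC at day 5 and by 1.75 ± 0.17 in MHCIIhi macrophages at day 11. Mitochondrial import genes rose in 9 of 23 in MHCIIlow macrophages at day 5 and in 0 to 6 elsewhere. Enzymes of the citric acid cycle were called upward in 0 to 6 of 19, among them Suclg1, a subunit of succinyl-CoA ligase, in all 5 populations at day 5, from 0.84 ± 0.26 in Langerhans cells to 1.23 ± 0.26 in monocytes. Of the regulators of mitochondrial biogenesis, 0 to 3 of 17 rose and 0 to 3 fell. Pprc1, a coactivator related to PGC-1, was lower in moDC (-0.94 ± 0.31), MHCIIlow macrophages (-1.26 ± 0.31) and CD11b+ dendritic cells (-1.16 ± 0.31) at day 5, and in all 5 populations at day 11, from -1.58 to -1.11. Of the glycolytic genes, 8 of 18 were higher and 0 lower in Langerhans cells at day 5, including Pgk1 (1.16 ± 0.17) and the lactate exporter Slc16a3 (1.39 ± 0.32). MHCIIlow macrophages had 2 higher and 2 lower. There Pgk1 also rose (1.14 ± 0.17) and the regulator Pfkfb3 fell (-1.36 ± 0.29). Other comparisons are not given for this list.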

How the data were processed

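Per the labels' protocols, 1 to 20 ng of RNA from sorted cells was amplified in 2 rounds and hybridised to mouse gene arrays. The authors deposited log2 values that, per the submitters' processing notes, were made with RMA; oligo and limma are also named there, with versions not given in the sources used here. The deposited table holds 35556 probe sets for 48 arrays, of which 21789 name 1 gene symbol, 1621 several and 12146 none, and 0 columns of other samples were present. The log2 values were used as deposited. Probe sets had to exceed a log2 value of 3.77 (the 40th percentile over the table) on 3 or more arrays, and each gene was read from its brightest remaining probe set, giving 15591 genes.

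A linear model over 16 group means was fitted with limma 3.58.1 in R 4.3.3 (lmFit, eBayes) to all 48 arrays. It gave 21 two-sided contrasts, with Benjamini-Hochberg adjustment over all genes of each contrast, and was tested on simulated data. The number of arrays, 3 per group, limits the precision. Alternatives were median-centred arrays, averaging the probe sets of each gene, no filter or a filter at the 60th percentile, fits of the groups compared alone, replicate blocks, and leaving out each array. For the Langerhans difference only Langerhans arrays were left out one at a time. Title numbers, whose meaning is not stated, were not used to pair the samples in the main fit. Deviations of arrays sharing letter and number had a median correlation of 0.04 over 100 pairs, with 17 above 0.1. Pairs with the same letter and another number had a median of -0.02, with 6 of 215 above 0.1. Those with the same number and another letter had a median of 0.008, with 11 of 175 above 0.1. Whether arrays sharing letter and number have a common source was not tested. Dispase digestion ran at either of 2 temperatures, not given per sample.

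The members, the 9 companion lists and the 12 marker lists were chosen with earlier results of these data known. Genes named in the text are, per comparison, the 6 largest rises and falls among called members without overlap (10 for Langerhans cells), a panel of core and isoform genes, the 5 widest and 5 narrowest ranges of group means, the filtered member, and up to 3 genes per companion list. Other members named for a role or for the title letter, and Ndufa13, were picked after their values were seen.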

Additional observations from a re-analysis of the deposited data

Results flagged for a closer look

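For these named members the response of Langerhans cells differed from the mean response of the 4 dermal populations measured on the same day. The difference itself was tested (limma, adjusted over all genes). At day 5 the difference was -1.12 for Ndufb2, -0.95 for Ndufv1, -0.92 for Ndufa6, -0.90 for Ndufb8, -0.81 for Ndufa1 and -0.70 for Ndufb5, with adjusted p from 0.00310 to 0.0412, and 0.68 for Cox4i2. At day 11 it was -1.24 for Ndufb2, -0.66 for Ndufa5, -0.65 for Ndufa1, -0.65 for Ndufa12, -0.62 for Atp5d and -0.56 for Uqcrc1, with adjusted p from 0.00110 to 0.0409, and 0.69 for Ndufaf7 (adjusted p = 0.0414). Both days share the untreated arrays, and the title letter of untreated Langerhans arrays differs from that of untreated dermal arrays, so a letter effect cannot be told apart from the difference.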

How the results depend on the processing

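In the 10 imiquimod comparisons under every alternative run, 150 comparison-setting pairs, 0 had any member lower, and none of the 103 named values reversed. Of those values, 12 lost their call after median-centring, 2 with the mean of probe sets, 41 in fits of the groups compared alone, 7 with the title number as replicate block, 7 without the 3 arrays that stood apart, 127 of 618 over all fits that leave out an array, 0 with title letter and number as a random replicate block, and 0 without the filter. The counts of members called moved by over 1.5 times as follows. In fits of the groups compared alone they were 4 for monocytes, 25 for moDC and 3 for CD11b+ dendritic cells at day 5, and 0 for moDC, 28 for MHCIIhi macrophages and 1 for CD11b+ dendritic cells at day 11. In untreated cells such fits gave 0 for moDC against monocytes, 1 for MHCIIlow macrophages against monocytes, 0 for MHCIIhi against MHCIIlow macrophages and 0 for CD11b+ dendritic cells against moDC, and 6 for the Langerhans difference at day 11. After median-centring, CD11b+ dendritic cells had 11 at day 5 and 13 at day 11, untreated CD11b+ dendritic cells against moDC 6, Langerhans against CD11b+ dendritic cells 11, and the Langerhans difference at day 11 had 3. With the title number as replicate block, Langerhans cells at day 5 had 21 and MHCIIhi against MHCIIlow macrophages 2. The mean of probe sets gave 1 call for Langerhans cells at day 11 against day 5. Leaving out together the 3 arrays that stood apart, chosen after seeing the data, gave 19 and 23 for Langerhans cells at days 5 and 11, 10 for CD11b+ dendritic cells at day 11, 0 for MHCIIhi against MHCIIlow macrophages and 7 for CD11b+ dendritic cells against moDC. The cause of these moves was not tested. Fits of the groups compared alone hold fewer arrays and estimate the spread from those arrays only. Leaving out each array in turn gave, at day 5, 37 to 52 for monocytes, 32 to 53 for moDC, 52 to 63 for MHCIIlow macrophages, 7 to 18 for CD11b+ dendritic cells and 6 to 11 for Langerhans cells. At day 11 it gave 13 to 27 for moDC, 34 to 41 for MHCIIlow and 44 to 60 for MHCIIhi macrophages, 8 to 28 for CD11b+ dendritic cells and 6 to 16 for Langerhans cells, and 0 for day 11 against day 5. Untreated comparisons ranged from 0 to 2 (moDC against monocytes), 7 to 14 (MHCIIlow macrophages against monocytes) and 0 to 2 (MHCIIhi against MHCIIlow). They ranged from 1 to 5 for CD11b+ dendritic cells against moDC and from 8 to 16 for Langerhans against CD11b+ dendritic cells. For the Langerhans difference only the Langerhans arrays were left out in turn, with 7 to 17 at day 5 and 4 to 8 at day 11. No single dermal array was left out of that difference. Genes with several probe sets changed with the same sign in 16 to 18 of 18 per comparison, with Cycs the widest apart.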
